A study of Mus musculus with 4 samples.

Results

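A set of 31 genes of the type I interferon response was followed across the series, of which 30 had a row in each of the 4 deposited libraries, among 32265 gene rows per library. The genes were listed by name as targets, sensors, factors and feedback regulators of interferon alpha and beta. Mx2, the remaining gene, is not analysed here.

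The samples came from the marrow of C57BL/6 mice. Cells were sorted for lineage-negative, Sca1-positive and cKit-positive surface markers (LSK), a gate that holds stem and multipotent progenitor cells, and profiled by inDrop, a droplet method that counts transcripts by unique molecular identifiers (UMIs). The 2 kinds of mice are labelled WT (wild-type) and CML (chronic myeloid leukaemia), and of each kind 1 library came from untreated and 1 from imatinib-treated mice. Imatinib blocks the ABL tyrosine kinase, and KIT and PDGF receptors too. The dose was 400 mg/kg by gavage, repeated every other day over 30 days according to one label and over 4 weeks according to another. Each group had 1 library, and the number of animals, any pooling and the allele or transplant behind the CML mice are not given in the sources used here. The differences are therefore unreplicated and untested, and the intervals, all at 95%, cover counting error only. The design text names drug-sensitive and drug-resistant CML cells as the subject. No label marks a cell as either, so the imatinib comparisons do not separate them.

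Type I interferons bind the receptor chains Ifnar1 and Ifnar2, whose kinases Jak1 and Tyk2 phosphorylate Stat2. Irf9 and Stat2 belong to a complex that binds the interferon-stimulated response element in target promoters and raises antiviral effectors, RNA sensors, amplifying factors and the brakes of the pathway together. Blood stem cells keep part of this programme on without infection, interferon alpha drives quiescent stem cells into cycle, and interferon alpha was a treatment of CML before kinase inhibitors.

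The element at the centre of this response was looked up in the promoters of the genes. Its core was searched as GAAANNGAAA on both strands (TTTCNNTTTC on the other strand, overlapping matches counted) in RefSeq promoters of GRCm38.p6, each 250 bases before to 50 after a transcription start. The core stood in 3.44% of 32851 promoters and in 42.9% of 28 promoters of 23 matched genes of the set. The core was found in 11 of the 23 genes, namely Bst2, Ddx58, Ifih1, Ifit1, Ifit3, Ifit3b, Isg15, Oas1a, Rsad2, Stat2 and Trim30a. The windows of the 150 bases before the start are printed for Rsad2 and Isg20, the genes on which the CML imatinib result turns, and for 4 genes with contrasting levels across the libraries, with the matches in capitals. They lie at chr12:26456453-26456602 (minus strand) for Rsad2, chr7:78913274-78913423 (plus strand, first of 3 starts) for Isg20, chr7:104465194-104465343 (minus strand, first of 2 starts) for Trim30a, chr4:156200819-156200968 (minus strand) for Isg15, chr19:34640739-34640888 (plus strand) for Ifit1 and chr8:71537473-71537622 (minus strand) for Bst2.
Rsad2: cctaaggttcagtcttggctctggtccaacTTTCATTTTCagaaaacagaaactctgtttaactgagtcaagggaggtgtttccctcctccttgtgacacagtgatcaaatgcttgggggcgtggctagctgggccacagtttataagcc
Isg20: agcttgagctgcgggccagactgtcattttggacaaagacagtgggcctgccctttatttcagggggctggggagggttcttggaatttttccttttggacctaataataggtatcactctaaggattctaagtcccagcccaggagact
Trim30a: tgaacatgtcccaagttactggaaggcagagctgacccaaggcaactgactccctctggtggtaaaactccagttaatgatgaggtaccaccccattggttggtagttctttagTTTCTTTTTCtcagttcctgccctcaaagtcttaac
Isg15: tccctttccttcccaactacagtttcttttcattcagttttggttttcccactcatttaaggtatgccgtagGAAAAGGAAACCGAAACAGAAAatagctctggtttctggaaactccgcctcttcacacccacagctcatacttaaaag
Ifit1: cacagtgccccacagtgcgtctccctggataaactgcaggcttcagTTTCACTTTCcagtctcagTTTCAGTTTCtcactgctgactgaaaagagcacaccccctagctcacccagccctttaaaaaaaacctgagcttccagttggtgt
Bst2: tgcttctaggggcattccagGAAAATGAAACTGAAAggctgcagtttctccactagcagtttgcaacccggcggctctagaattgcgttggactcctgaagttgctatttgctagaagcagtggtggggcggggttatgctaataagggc
Counted from the start, the Rsad2 match lay at bases -120 to -111 and the Trim30a match at -36 to -27, both on the strand opposite to the gene. Isg15 held 3 overlapping matches between bases -78 and -57 on its own strand, Bst2 held 2 overlapping ones between -130 and -115, and Ifit1 held 2 separate ones at -104 to -95 and -85 to -76. None of the 3 Isg20 promoters held the core in these windows. A match is a description of letters and not evidence of binding.

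Kept cells numbered 3030 to 5139 per library, with 8245224 to 21283108 UMIs in all and medians of 1198 to 5160.5 UMIs per cell, the imatinib libraries being the shallower ones. Counts were summed over the kept cells of a library and given as counts per 1e+06 UMIs (CPM), so that fewer cells of a type and less RNA per cell cannot be told apart in a library's sum. Kit, which encodes the sorted cKit receptor, was at 136 to 176 CPM in every library, whereas Ly6a, which encodes Sca1, was at 192 CPM in WT untreated, 95.8 in CML untreated and 49.6 and 51.0 in the WT and CML imatinib libraries. Markers of cells outside the gate were present: the 14 neutrophil markers summed to 69.3 and 92.7 CPM in the untreated WT and CML libraries and to 6838 and 9961 CPM in the imatinib ones, and the 12 plasma cell markers summed to 24362, 7065, 1161 and 189 CPM in WT untreated, CML untreated, WT imatinib and CML imatinib. Xist, transcribed from the inactive X of female cells, was at 2375 CPM in CML untreated and at 1.52 in WT untreated, 3.15 in WT imatinib and 94.97 in CML imatinib, so sex and group cannot be told apart in any comparison with that library. Between 80 and 1135 cell names recurred between pairs of libraries, but same-named cells correlated at a median r of 0.0419 to 0.128 against 0.0451 to 0.137 for cells of other names.

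The interferon genes were highest in the WT untreated library and lowest in the WT imatinib library, with both CML libraries between them. Summed over the 30 genes, the level was 963 CPM (947 to 980) in WT untreated, 784 (772 to 796) in CML untreated, 586 (571 to 602) in CML imatinib and 432 (418 to 447) in WT imatinib. Of the 30 genes, 23 had their highest level in WT untreated and 19 their lowest in WT imatinib, and 21 were lower in both imatinib libraries than in both untreated ones. Of the other 7 genes, 5 had their highest level in CML imatinib, among them Rsad2 and Isg20, and Ifih1 and Ddx58 had theirs in CML untreated. A level of 10 CPM was reached by 22 genes in at least 1 library and by 11 in all 4. The 8 below it everywhere were Ifit1, Ifit3, Ifit3b, Oas1a, Mx1, Isg15, Ifi27l2a and Ifi44.

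**Figure D1:**
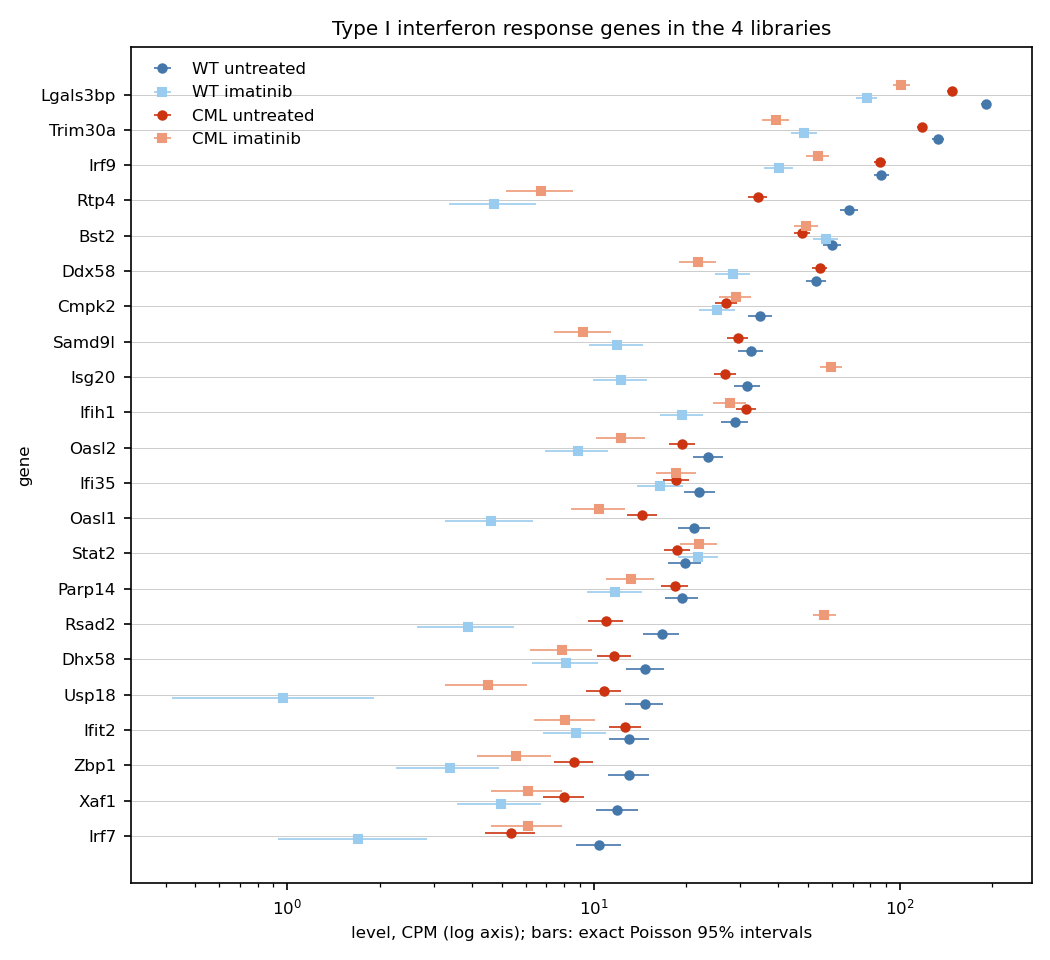
Level of each interferon gene that reached 10 CPM in any library, on a log axis in CPM, with exact Poisson 95% intervals as bars and 1 point per library. For most genes the pale imatinib squares lie left of the dark untreated circles, while Rsad2 and Isg20 lie furthest right in CML imatinib, at 56.6 and 59.6 CPM.

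Imatinib in WT mice was the comparison with the widest change. A gene was called changed when its CPM differed at least 2-fold and the higher of the libraries had 10 CPM and 50 UMIs or more. Of 22 interferon genes that passed this floor, 13 fell in WT imatinib and 0 rose, beside 6.72% lower and 8.36% higher among all 9196 genes that passed it. The median log2 ratio was -1.28 over 22 genes, beside -0.03 over all genes, and 25 of the 30 genes had an interval below 0. The share of all genes with such an interval was not counted. Scaling by trimmed means (TMM) shifted all log2 ratios of this comparison by -0.25.

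Imatinib in CML mice was compared in the same way. Of 19 genes that passed the floor, Rsad2 and Isg20 rose and Ddx58, Usp18, Trim30a, Samd9l and Rtp4 fell, beside 11.5% higher and 7.96% lower among all genes, so that the share of the set called higher was near that of all genes. Neither Rsad2 nor Isg20 was called higher without the erythroid-like cells described further on. The median was -0.54 over 19 genes, against 0.01 over all genes. Under TMM, which shifted every ratio here by -0.32, the counts were 1 higher and 6 lower, Isg20 was no longer called, and the ratios of Stat2, Bst2 and Cmpk2 turned from above 0 to below 0. The all-gene median was then -0.31, and no all-gene share under TMM is set beside these counts.

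Between the untreated libraries 0 of 22 genes were called in either direction, beside 0.729% higher and 0.381% lower among all genes. The levels nevertheless leaned one way: 28 of the 30 log2 ratios of CML to WT were below 0, with 19 intervals below 0 and 0 above, and the median was -0.31 against 0.03 for all genes. Of the 22 genes with 10 CPM, 20 had a ratio below 0. The share of all genes with an interval below 0 was not counted. The ratios of Ifih1 and Ddx58 were above 0 and turned below 0 under TMM, which shifted this comparison by -0.17. Under TMM 3 genes, Irf7, Mx1 and Rtp4, were called lower. The all-gene median was then -0.14, and no all-gene share under TMM is set beside this count. Rtp4 and Irf7 lay just short of the 2-fold limit, at log2 ratios of -0.995 and -0.96.

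Among the imatinib-treated libraries Rsad2, Isg20 and Oasl1 were higher in CML and 0 of 15 genes were lower, beside 3.82% and 0.208% of all genes. Without erythroid-like cells 0 of the 3 were called. Rsad2, at 7.75 and 3.90 CPM in CML and WT imatinib, and Oasl1, at 5.17 and 4.51, then lay under the 10 CPM floor. They could not be called at any ratio, and the log2 ratio of Rsad2 was 0.99 (0.35 to 1.66). The median of 0.20 over 15 genes stood against 0.02 for all genes and turned to -0.0532 under TMM, where 14 genes reached 10 CPM. The 4 comparisons share their libraries, so the WT imatinib level, for example, enters both the comparison with WT untreated and that with CML imatinib.

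**Figure D2:**
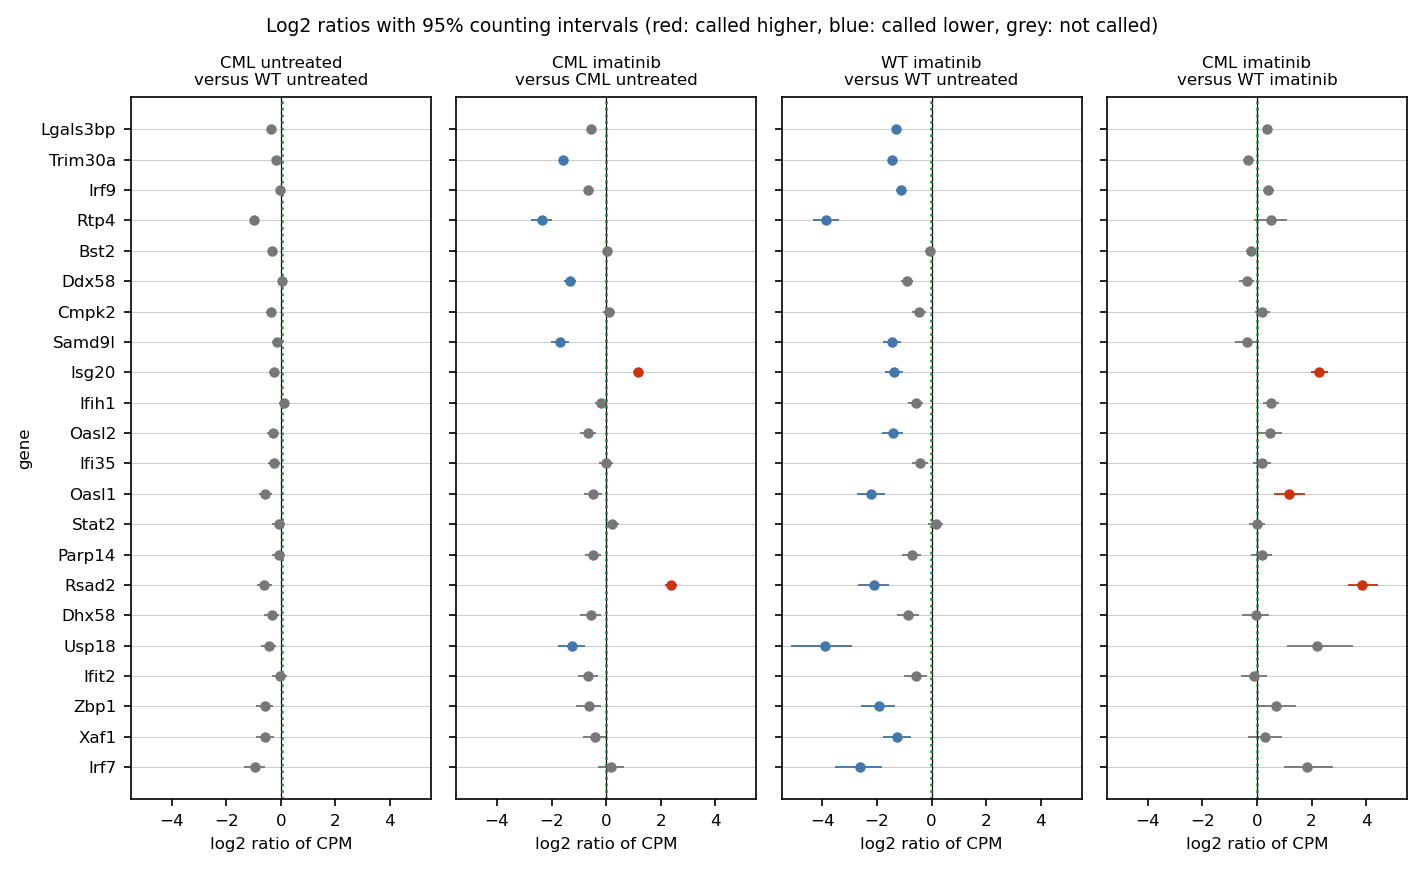
Log2 ratio of CPM for each interferon gene of at least 10 CPM in any library, in the 4 comparisons, with 95% counting intervals as bars, the all-gene median as a dotted line and genes called higher in red and lower in blue. The WT imatinib panel shows 13 genes lower, and the CML imatinib panels show Rsad2 and Isg20 higher in CML imatinib.

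The RNA sensors did not all pass the call. Ddx58, which encodes the RIG-I sensor of viral RNA ends, was at 53.1 CPM in WT untreated, 28.5 in WT imatinib, 54.6 in CML untreated and 21.9 in CML imatinib. It fell 2.49-fold (2.15 to 2.90) with imatinib in CML, and its 1.86-fold lower level in WT stayed under the limit. Ifih1, the MDA5 sensor of long double-stranded RNA, was at 28.8 CPM in WT untreated, 19.4 in WT imatinib, 31.5 in CML untreated and 27.8 in CML imatinib and was called in no comparison. Dhx58, which encodes LGP2, a regulator of both sensors, was at 14.7, 8.13, 11.7 and 7.86 CPM. Its levels were lower in the imatinib libraries without reaching 2-fold. Zbp1, a sensor of Z-form nucleic acids that can start necroptosis, was at 13 CPM in WT untreated, 3.40 in WT imatinib, 8.60 in CML untreated and 5.56 in CML imatinib. It fell 3.83-fold (2.56 to 5.93) in WT.

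The factors that carry the signal diverged. Irf9, the DNA-binding subunit of the interferon complex, was at 86.9 CPM in WT untreated, 40.3 in WT imatinib, 86.2 in CML untreated and 53.8 in CML imatinib, and fell 2.16-fold (1.91 to 2.45) in WT. Its partner Stat2 was at 19.8, 22.0, 18.7 and 22.0 CPM, a range in which all 4 intervals overlapped. Irf7, the factor that amplifies interferon alpha production, was at 10.4, 1.70, 5.36 and 6.08 CPM in that order. It fell 6.13-fold (3.53 to 11.5) in WT, where only 14 UMIs were left in the imatinib library.

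Among modifiers and brakes, Usp18 had the widest called fall. Usp18, which removes Isg15 from proteins and blocks the interferon receptor, was at 14.7 CPM in WT untreated, 0.970 in WT imatinib, 10.8 in CML untreated and 4.51 in CML imatinib. It fell 15.1-fold (7.52 to 35.5) in WT, where 8 UMIs were left in the imatinib library, and 2.40-fold (1.73 to 3.40) in CML. Erythroid-like cells held 55.8% of the Usp18 UMIs of CML imatinib. Without them the log2 ratio for imatinib was -2.10 (-2.87 to -1.43) in CML and -3.94 (-5.18 to -2.94) in WT. Trim30a, a RING-domain protein that restrains NF-kB signalling, was at 133, 48.8, 118 and 39.3 CPM. Its fall was 2.73-fold (2.45 to 3.05) in WT and 2.998-fold (2.69 to 3.35) in CML. Parp14, an ADP-ribosyltransferase, was at 19.4, 11.8, 18.4 and 13.2 CPM and was not called. Isg15, the ubiquitin-like modifier, stayed under 10 CPM at 7.15, 5.70, 4.18 and 7.76.

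Among the antiviral effectors were both genes that rose in CML imatinib. Rsad2 encodes viperin, a radical-SAM enzyme that makes a chain-terminating nucleotide, and lies on the minus strand of chromosome 12 at 26442746-26456452 (GRCm38) next to Cmpk2 at 26469204-26479837. Rsad2 was at 16.6 CPM (14.5 to 19.0) in WT untreated, 3.88 (2.65 to 5.48) in WT imatinib, 10.9 (9.59 to 12.4) in CML untreated and 56.6 (51.9 to 61.6) in CML imatinib. The CML imatinib library thus stood far above the other 3, and WT imatinib below them. Rsad2 rose 5.17-fold (4.43 to 6.06) with imatinib in CML, fell 4.29-fold (2.95 to 6.43) with imatinib in WT, and was 14.6-fold (10.2 to 21.5) higher in CML than in WT among the imatinib libraries. Isg20, an RNA exonuclease encoded at chromosome 7, 78913424-78920396, was at 31.6 CPM (28.7 to 34.8), 12.2 (9.98 to 14.9), 26.9 (24.7 to 29.2) and 59.6 (54.8 to 64.8) in that order. It rose 2.22-fold (1.97 to 2.50) in CML, fell 2.58-fold (2.07 to 3.24) in WT and was 4.87-fold (3.93 to 6.08) higher in CML imatinib than in WT imatinib.

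The other effectors did not share that rise. Cmpk2, the mitochondrial nucleotide kinase next to Rsad2, was at 34.9 CPM in WT untreated, 25.3 in WT imatinib, 27.0 in CML untreated and 29.0 in CML imatinib, and was called nowhere. Bst2, the tetherin that holds budding virus at the membrane, was nearly level at 60.1, 57.1, 47.8 and 49.3 CPM. Samd9l, a growth-restraining protein of blood progenitors, was at 32.5, 11.9, 29.6 and 9.22 CPM. It fell 2.74-fold (2.19 to 3.45) in WT and 3.21-fold (2.56 to 4.06) in CML. Oasl1, an inhibitor of Irf7 translation, was at 21.3, 4.61, 14.4 and 10.4 CPM, fell 4.62-fold (3.28 to 6.66) in WT and was 2.25-fold (1.53 to 3.37) higher in CML imatinib than in WT imatinib, a log2 ratio that was 0.20 (-0.49 to 0.88) without erythroid-like cells. Oasl2 was at 23.6, 8.85, 19.4 and 12.3 CPM and fell 2.67-fold (2.06 to 3.50) in WT. Ifit2, which binds viral RNA, was at 13.1, 8.73, 12.7 and 8.07 CPM and was called nowhere. The effectors below 10 CPM could not be called. Ifit1 was at 8.44, 1.70, 4.56 and 3.77 CPM, and Mx1, a GTPase that blocks influenza virus, was at 9.12, 0.485, 2.49 and 0.943 CPM. Both had their highest level in WT untreated. Ifit3, Ifit3b and Oas1a lay between 0 and 1.57 CPM, and Ifit3 had 0 UMIs in WT imatinib, which allows up to 0.364 CPM by a floor of 3 counts.

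Of the remaining genes Rtp4 had the widest called change. Rtp4, a chaperone of G protein-coupled receptors, was at 68.3 CPM in WT untreated, 4.73 in WT imatinib, 34.3 in CML untreated and 6.71 in CML imatinib. It fell 14.4-fold (10.5 to 20.4) in WT and 5.11-fold (3.95 to 6.70) in CML. Erythroid-like cells held 54.7% of the Rtp4 UMIs of CML imatinib. Without them the log2 ratio for imatinib was -3.21 (-3.80 to -2.68) in CML and -3.91 (-4.42 to -3.44) in WT. Lgals3bp, a secreted galectin-binding glycoprotein, was at 191, 77.7, 147 and 101 CPM and fell 2.45-fold (2.25 to 2.68) in WT. Xaf1, a partner of the apoptosis inhibitor XIAP, was at 11.9, 4.97, 7.99 and 6.08 CPM and fell 2.40-fold (1.69 to 3.47) in WT. Ifi35 was at 22.1, 16.5, 18.6 and 18.6 CPM and was called nowhere. Ifi27l2a was at 9.96, 1.09, 5.64 and 0.524 CPM and Ifi44 at 5.85, 1.09, 4.51 and 1.68 CPM, both under the floor.

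The cells were then grouped by clustering that left out the interferon genes, and clusters were named from marker genes only. T and NK cell-like cells carried the highest summed level among clusters of at least 25 cells in the untreated libraries, at 1569 CPM (1419 to 1729) over 123 WT cells and 1925 (1778 to 2080) over 128 CML cells. Lymphoid-primed-like cells, led by Dntt and Flt3, stood at 1253 and 1023 CPM in the untreated WT and CML libraries. Granulocyte-monocyte progenitor-like cells, led by Elane and Mpo, were low in all 4 libraries, at 534 CPM in WT untreated, 395 in WT imatinib, 480 in CML untreated and 422 in CML imatinib. Monocyte and macrophage-like cells of cluster 1 were at 771, 337, 541 and 412 CPM in that order. Cluster 2, led by Apoe and Pf4 among others and left unnamed, held 1467 and 1498 cells of the untreated WT and CML libraries and was at 1112 and 920 CPM there, and at 840 and 875 CPM over 77 and 30 cells of the WT and CML imatinib libraries.

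**Figure D3:**
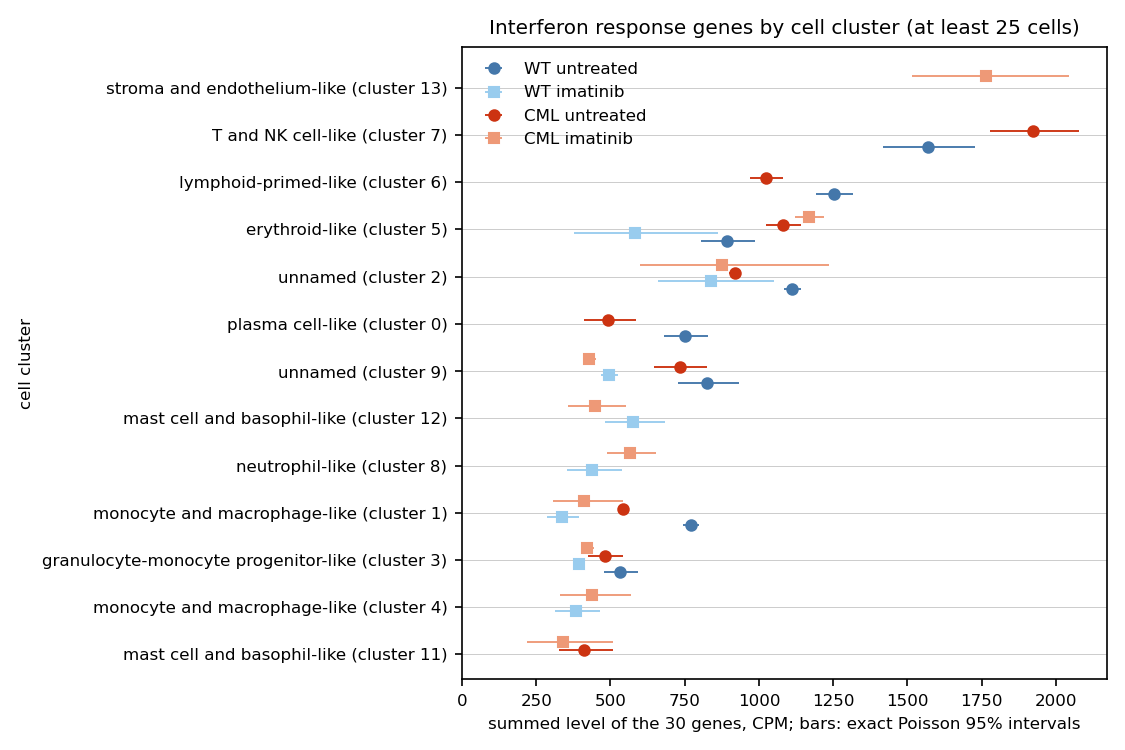
Summed level of the 30 genes in CPM for each cluster with at least 25 cells of a library, with exact Poisson 95% intervals as bars. T and NK cell-like and stroma and endothelium-like clusters lie furthest right (1569 to 1925 CPM), and the granulocyte-monocyte progenitor-like cluster lies at 395 to 534 CPM in all 4 libraries.

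Individual genes had their own cell classes. Ifi27l2a was at 183 and 192 CPM in the T and NK cell-like cells of the untreated WT and CML libraries and at 4.32 and 1.11 CPM in the monocyte-like cells of cluster 1. Samd9l, at 144 and 126 CPM, and Zbp1, at 97.3 and 135 CPM, were likewise high in T and NK cell-like cells. Rtp4 was at 123 and 105 CPM in lymphoid-primed-like cells and cluster 2 of WT untreated, but at 3.08 CPM in the granulocyte-monocyte progenitor-like cells of that library. A cluster of 34 stroma and endothelium-like cells, all from CML imatinib, reached 1764 CPM (1515 to 2043) for the summed set. There Ifit1 was at 149 CPM, Isg15 at 109, Bst2 at 218 and Lgals3bp at 605, while Rsad2 and Isg20 had 0 UMIs among 34 cells.

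The share of these clusters moved with treatment beside the interferon genes. Granulocyte-monocyte progenitor-like cells numbered 88 and 75 in the untreated WT and CML libraries and 1427 and 1084 in the imatinib ones, and cluster 9, an unnamed group of shallow cells, numbered 194, 155, 2051 and 3193 in WT untreated, CML untreated, WT imatinib and CML imatinib. The part of these shares in the library-wide ratios was not tested beyond within-cluster values. For imatinib in CML the summed log2 ratio was -0.19 (-0.37 to 0.01) in granulocyte-monocyte progenitor-like cells. It was -0.39 (-0.82 to 0.01) in cluster 1 and -0.07 (-0.62 to 0.43) in cluster 2, over 26 and 30 CML imatinib cells. In cluster 9 it was -0.78 (-0.96 to -0.58), in erythroid-like cells 0.11 (0.01 to 0.21) and in mast cell and basophil-like cluster 11 -0.26 (-0.99 to 0.41). The values that follow compare WT imatinib with WT untreated. In the granulocyte-monocyte progenitor-like cluster the summed log2 ratio was -0.43 (-0.60 to -0.26), and of 6 genes that passed the floor Isg20 was higher and Trim30a lower, beside 13.6% and 0.967% of all genes. In monocyte-like cluster 1 it was -1.19 (-1.44 to -0.96), and 10 of 16 genes were lower and 0 higher, beside 17.1% and 2.38% of all genes. In cluster 9 the summed log2 ratio was -0.74 (-0.94 to -0.54). In cluster 2, with 77 WT imatinib cells, it was -0.40 (-0.75 to -0.08), and of 12 genes Rtp4 was lower and 0 were higher, beside 21.6% and 0.414% of all genes. The floor of 50 UMIs applied to the higher side, and the sides were unequal. WT imatinib held 450570 UMIs in cluster 1 and 90511 in cluster 2, against 4395522 and 5279855 in WT untreated. Calls of higher were thus limited there to abundant genes. The granulocyte-monocyte progenitor-like cluster held 648403 UMIs in WT untreated and 4584752 in WT imatinib, which limited calls of lower.

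Between the untreated libraries the lean toward lower levels in CML was present within the 2 largest clusters. The summed log2 ratio was -0.51 (-0.58 to -0.45) in cluster 1, where Xaf1 was lower and 0 of 17 genes were higher, beside 0.768% and 1.26% of all genes. It was -0.27 (-0.32 to -0.22) in cluster 2, where Irf7 and Rtp4 were lower and 0 of 22 were higher, beside 0.231% and 1.03%. T and NK cell-like and erythroid-like cells went the other way, at 0.30 (0.11 to 0.48) and 0.28 (0.11 to 0.45). Whether these clusters differ from clusters 1 and 2 in their response was not tested. Among the imatinib libraries the granulocyte-monocyte progenitor-like cells differed by 0.10 (-0.01 to 0.20), with 0 of 12 genes called higher or lower, beside 0.78% and 0.478% of all genes.

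The rise of Rsad2 and Isg20 in CML imatinib lay in erythroid-like cells. That cluster, led by the haemoglobin genes, Car1 and Rhd, numbered 55 cells in WT untreated, 32 in WT imatinib, 108 in CML untreated and 272 in CML imatinib, where it made up 5.29% of the cells and 18.8% of the UMIs. The 15 erythroid markers summed to 951, 207, 1154 and 4236 CPM in those libraries, and the haemoglobin genes alone to 44.2, 8.37, 40.2 and 1988 CPM. Rsad2 was at 0, 0, 7.49 and 267 CPM in erythroid-like cells of the 4 libraries in that order. A Rsad2 UMI was found in 33 of 272 such cells of CML imatinib (12.1%, median depth 1573.5 UMIs), against 14 of 1084 granulocyte-monocyte progenitor-like cells (1.29%, median depth 2533) and 3 of 108 erythroid-like cells of CML untreated (2.78%, median depth 7968.5). The erythroid-like cells held 88.9% of the Rsad2 UMIs of the CML imatinib library and 37.6% of the UMIs of the whole set.

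Isg20 was high in erythroid-like cells of every library, unlike Rsad2. Its level there was 115 CPM in WT untreated, 187 in WT imatinib (8 UMIs), 141 in CML untreated and 271 in CML imatinib. Erythroid-like cells with an Isg20 UMI made up 43.6% of 55, 12.5% of 32, 54.6% of 108 and 33.8% of 272 cells, against 4.55%, 4.06%, 9.33% and 2.86% of granulocyte-monocyte progenitor-like cells in the same libraries. The median depths of these erythroid-like cells were 7903, 1107, 7968.5 and 1573.5 UMIs, so the shares are not on equal depth between libraries. Plasma cell-like cells also carried it, at 109 CPM in WT untreated and 58.6 CPM in CML untreated. In CML imatinib 85.6% of the Isg20 UMIs lay in erythroid-like cells, compared with 29.7% in CML untreated and 11.8% in WT untreated.

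Summed over all cells but the erythroid-like ones, both genes were lower, not higher, in CML imatinib than in CML untreated. Rsad2 was then at 17.2 CPM in WT untreated, 3.90 in WT imatinib, 11.2 in CML untreated and 7.75 in CML imatinib, a log2 ratio of -0.53 (-0.96 to -0.11) for imatinib in CML. Isg20 was at 28.8, 11.3, 20.02 and 10.6 CPM, a log2 ratio of -0.92 (-1.28 to -0.57). Neither ratio reached 2-fold, and the cells summed differed in cluster shares between these libraries. In granulocyte-monocyte progenitor-like cells Rsad2 was at 9.11 CPM (28 UMIs) in CML imatinib against 1.76 (1 UMI) in CML untreated. In cluster 2 it was at 273 (10 UMIs in 1 cell) against 16.8. In clusters 9 and 1 it was lower, at 4.64 against 5.45 and 0 against 4.07. Isg20 was at 14.6 against 31.8 in granulocyte-monocyte progenitor-like cells and 16.5 (2 UMIs) against 8.03 in cluster 1. The CML to WT ratio among the imatinib libraries was 0.99 (0.35 to 1.66) for Rsad2 and -0.10 (-0.54 to 0.35) for Isg20. The summed set was then at 966, 432, 766 and 451 CPM.

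Within the erythroid-like cells of CML imatinib against those of CML untreated, Rsad2 rose and Trim30a fell among 9 genes that passed the floor, beside 20.6% higher and 13.9% lower among all genes. The Rsad2 level differed by the haemoglobin share of a cell. It was 36.8 CPM in the 202 erythroid-like cells of CML imatinib with under 1% of their UMIs from haemoglobin, 309 in the 46 cells with 1 to 5%, and 5937 (5323 to 6602) in the 24 cells with 5% or more. These levels rested on 54 Rsad2 UMIs in 12 cells, 85 in 8 cells and 341 in 13 cells. A single cell held 21 of the 54, and another held 57 of the 85. The interval counts UMIs and not cells. Isg20 was at 213, 480 and 749 CPM in the same 3 ranges. The other 28 genes, summed, were at 695, 291 and 662 CPM, with no such order. These are ranges of a continuous share: 14 cells lay between 0.8 and 1.2% and 12 between 4 and 6%. Erythroid-like cells of the untreated libraries had at most 0.129% haemoglobin and those of WT imatinib at most 1.101%, so the upper ranges could not be compared between libraries.

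A few cells carried Rsad2. Its 10 top cells in CML imatinib held 386 of 540 UMIs (71.5%), and 6 cells were enough for 50% of them. Among all genes with at least 50 UMIs in that library, the median share in the 10 top cells was 19.2%. Each of the 10 cells had 18 to 62 Rsad2 UMIs, out of 550 to 17415 UMIs in all with a median of 893. In the first of them, Rsad2 made up 62 of 641 UMIs. All 10 were erythroid-like, with 0.138 to 13.3% of UMIs from haemoglobin.

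The rest of the set was read in the same cells as a level, since the number of genes detected moves with depth. The other 28 genes (leaving out Isg20 as well) summed to 1222 CPM (831 to 1735) in the 10 cells, from 31 UMIs, against 470 CPM in the whole library, and 5 of the 10 cells had a UMI of none of them. That level weighs cells by depth, and 1 cell had 17415 UMIs against a median of 893. Only 0.121% of the UMIs of that cell came from Rsad2, and 3 of the 28 genes were detected in it. Its part of the 31 UMIs was not separated, so the level does not describe the shallow cells rich in Rsad2. In WT untreated the 10 top cells, with a median depth of 3089.5 UMIs, had 4 to 9 Rsad2 UMIs, and the other 28 genes summed to 4963 CPM (4226 to 5792) against 915 in the library. In CML untreated, at a median depth of 8307.5 UMIs, they had 5 to 13 Rsad2 UMIs, and the others summed to 1864 CPM (1606 to 2152) against 746. Of these 20 cells 1 was erythroid-like, and in WT imatinib the 10 top cells held only 18 Rsad2 UMIs.

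**Figure D4:**
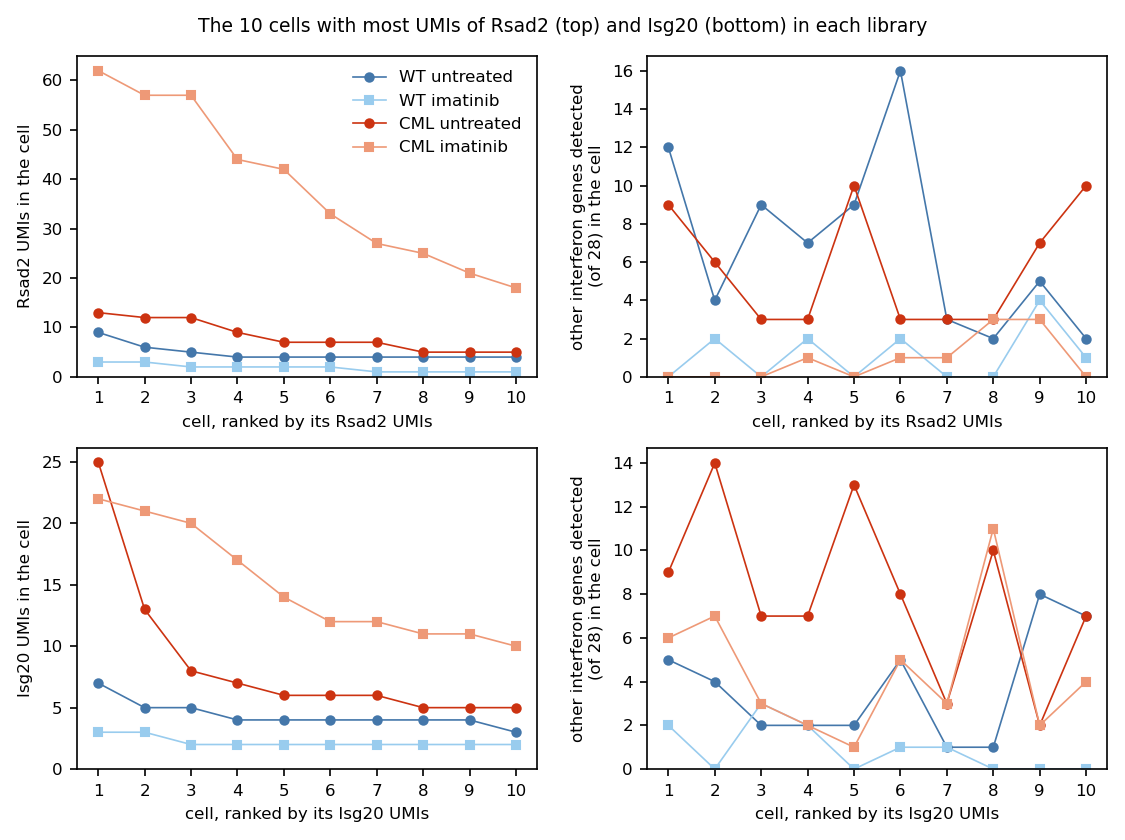
For the 10 cells with most UMIs of Rsad2 (upper row) and Isg20 (lower row) in each library, ranked along the x axis, the left panels give the UMIs of that gene and the right panels the number of the other 28 interferon genes detected in the same cell. Rsad2 reaches 62 UMIs in a CML imatinib cell and 9 in a WT untreated cell; the right panels are not on equal depth, with median depths of the top Rsad2 cells of 893 UMIs in CML imatinib and 3089.5 in WT untreated.

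The Isg20 signal was spread more widely. Its 10 top cells in CML imatinib held 150 of 569 UMIs (26.4%), with 10 to 22 UMIs each, and 26 cells held 50%. All 10 were erythroid-like and deep, at 10793 to 70640 UMIs with a median of 30898, so that many Isg20 UMIs went with many UMIs of all kinds. Of the top Isg20 cells, 3 had a Rsad2 UMI, and 3 of the top Rsad2 cells had an Isg20 UMI. In CML untreated the 10 top cells held 86 of 572 UMIs, and 7 of them were erythroid-like.

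The same share was taken for the other genes of the set. In CML imatinib a share over 25% in the 10 top cells was found for 15 of 22 genes with at least 50 UMIs, beside 32.8% of all genes. The counts were 3 of 27 in WT untreated (10.3% of all genes), 4 of 15 in WT imatinib (13.3%) and 7 of 27 in CML untreated (19.0%). The median share of the interferon genes was 38.8% in CML imatinib (all genes 19.2%), 11.6% in WT untreated (9.19%), 17.6% in WT imatinib (11.6%) and 16.7% in CML untreated (12.2%). By construction this share tends to be larger for genes with few UMIs, such as Irf7 with 58 in CML imatinib. The all-gene values were not matched for UMI count, so the share cannot be read as a trait of the set. The median dispersion of UMIs over cells was 1.95 for the set against 1.83 for all genes in CML imatinib, 1.88 against 1.46 in WT untreated, 1.78 against 1.48 in WT imatinib and 2.86 against 1.94 in CML untreated. By that measure CML imatinib did not stand above the other libraries, although Rsad2 alone was at 73.0 there.

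In CML imatinib Irf7 had 67.2% of its 58 UMIs in 10 cells and Rtp4 65.6% of its 64, and 7 and 6 of these cells were erythroid-like, at median depths of 11433.5 and 8687 UMIs. For Oasl1 the share was 52.5%, with 9 of 10 cells erythroid-like at a median depth of 27526 UMIs. Isg15, at 40.5%, had 7 erythroid-like and 2 stroma and endothelium-like cells among its 10. Parp14 (54.0%) and Ifih1 (46.8%) had 20 and 27 UMIs in a single cell. Samd9l, at 38.6%, had 5 neutrophil-like cells among its 10, and Ifit2, at 39.0%, had 7 granulocyte-monocyte progenitor-like ones. The remaining shares were 50.9% for Zbp1, 44.8% for Xaf1, 41.3% for Dhx58, 38.5% for Oasl2 and 26.2% for Stat2.

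In the untreated libraries Mx1, Ifit1 and Ifi44 stood above 25% in both. Mx1 had 31.7% of its UMIs in 10 cells of WT untreated and 54.7% in CML untreated, Ifit1 had 30.6% and 40.2%, and Ifi44 had 27.3% and 33.3%. In the 10 top Ifit1 cells of WT untreated the other interferon genes summed to 4796 CPM, against 955 in the library. CML untreated also held Rsad2 (35.2%), Ifi27l2a (31.7%, with 8 of 10 cells T and NK cell-like), Irf7 (31.6%) and Isg15 (28.1%). In WT imatinib Parp14 (29.9%), Ifih1 (29.4%), Dhx58 (28.4%) and Samd9l (25.5%) lay above 25%, with 6 or 7 granulocyte-monocyte progenitor-like cells among the 10 in each case.

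**Figure D5:**
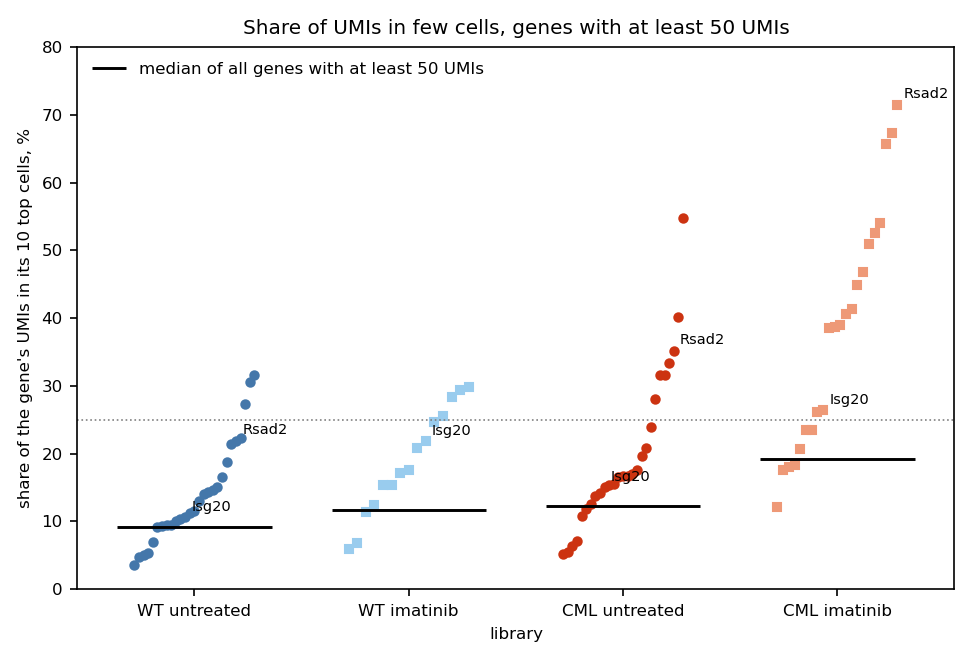
Percent of a gene's UMIs held by its 10 top cells, 1 point per interferon gene with at least 50 UMIs in a library, with a black line at the median of all genes and a dotted line at 25%. In CML imatinib 15 of 22 genes lie above 25%, with Rsad2 at 71.5%.

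To compare detection per cell at 1 depth, each cell was thinned to 500 UMIs. Cells with at least 3 of the 30 genes then made up 2.08% (1.60 to 2.65) of WT untreated cells, 1.25% of CML untreated, 0.156% of CML imatinib and 0.0717% of WT imatinib cells, that is 63 of 3030, 38 of 3032, 8 of 5139 and 3 of 4187. Before thinning the shares were 44.7%, 43.7%, 3.02% and 4.01%, at the unequal depths given above. The mean number of interferon UMIs per thinned cell was 0.538, 0.456, 0.291 and 0.236 in that order, the same order as the shares at 500 UMIs. Without Rsad2 and Isg20 the mean was 0.225 in CML imatinib and 0.229 in WT imatinib. Whether the genes met in the same cells beyond their levels was not tested. In WT untreated the share was 5.69% of T and NK cell-like cells and 2.52% of cluster 2, and 0 of 88 granulocyte-monocyte progenitor-like cells. In WT imatinib 0 of 1427 granulocyte-monocyte progenitor-like cells had 3 of the genes.

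The rest of the pathway was read from further lists. Of the interferon genes themselves, Ifna4, Ifnk, Ifne, Ifng and Ifnl2 had a row, none passed the floor, and Ifng had the most UMIs, 33 in WT untreated and 39 in CML untreated against 3 in each imatinib library. Ifnar1 was at 10.3 CPM in WT untreated, 12.1 in WT imatinib, 16.4 in CML untreated and 18.2 in CML imatinib, and Ifnar2 at 82.3, 68.0, 78.4 and 55.6 CPM. Of the 12 receptor and signalling genes, Socs3, a feedback inhibitor of cytokine receptors, fell in CML imatinib with a log2 ratio of -3.04 and in WT imatinib with -2.50. The interferon gamma receptor gene Ifngr1 rose by 1.54 in WT. Between the untreated libraries 0 of 12 were called, beside 0.729% higher and 0.381% lower among all genes. Between the imatinib libraries 0 of 11 were called, beside 3.82% and 0.208%, so both counts were near the all-gene shares. Among 10 genes of interferon induction that passed the floor, 1 fell and 1 rose in each genotype. Of all genes, 7.96% were lower and 11.5% higher in CML, and 6.72% and 8.36% in WT, so these counts were near the all-gene shares. In the receptor and signalling list 1 of 12 fell in CML, and of 11 in WT 1 fell and 1 rose, also near those shares. The adaptor gene Mavs fell by 1.37 on the log2 scale in CML and by 1.60 in WT, while the kinase gene Ikbke rose by 1.02 in WT and Ticam1, named after its values were seen, rose in CML.

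Further interferon targets outside the set were called lower more often than higher in both imatinib libraries. Of 26 that passed the floor, 9 fell and 1, Slfn2, rose in WT imatinib, beside 6.72% and 8.36% of all genes, with Epsti1 at -1.67, Ifi203 at -1.60, Trim34a at -1.25 and Ifi47 at -1.19. In CML imatinib 7 of 24 fell and 2, Slfn2 and Eif2ak2, rose, beside 7.96% and 11.5% of all genes (the rising genes were named after their values were seen), with Epsti1 at -2.21, Tnfsf10 at -1.78, Dtx3l at -1.49 and Ifi203 at -1.34. The medians were -0.86 and -0.55. Of the interferon gamma and antigen presentation genes, 5 of 20 fell in WT (6.72% of all genes) and 6 of 21 in CML (7.96%), and 0 rose in either, with the falls including the GTPase genes Gbp2 (-2.27 and -2.42) and Igtp (-1.32 and -1.24), and H2-K1 (-1.44) and B2m (-1.21) in CML. Irf8, also a monocyte marker, was lower in CML untreated than in WT untreated at -1.28. In the Ifitm family Ifitm6, also a neutrophil marker, rose by 2.48 in WT and 2.65 in CML, Ifitm3 fell by 1.32 in WT, and Ifitm1, also a stem cell marker, fell by 1.53 in CML.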

How the data were processed

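Each library was deposited by the authors as a table of normalized signal per gene and cell, with every cell scaled to about the same total. Dividing a cell's values by its smallest nonzero value gave whole UMIs for 100% of values (tolerance 0.02). Partek 8.0, Bowtie 1.1.1 and GRCm38 (mm10) are named in the submitters' processing notes, with no role given. The header holds 1 name more than there are columns, so cells were taken by position. Cells with at least 500 UMIs, 200 genes and at most 20% mitochondrial UMIs were kept.

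UMIs were summed per library or cluster and given as CPM with exact Poisson 95% intervals, and ratios with exact conditional binomial intervals. A gene at 0 was set to a floor of 3 UMIs, and got no ratio or call where that floor lay above its level in the other library. A call needed a 2-fold difference with 10 CPM and 50 UMIs in the higher library. With 1 library per group edgeR's tests could not be used, and edgeR 4.0.16 (R 4.3.3) gave TMM factors only. Cells were clustered with scanpy 1.11.5 (Python 3.11.15, numpy 2.4.6, scipy 1.17.1, pandas 2.3.3) without the interferon genes, and a cluster was named when at least 3 fixed markers stood among its 25 leading genes. Scrublet marked 0 cells and so did not work, and doublets were not removed. Members with 10 CPM in any library were named with their values, Rsad2, Isg20 and members with over 25% of at least 50 UMIs in 10 cells in more detail, and up to 4 genes of 20 CPM with the largest ratios from each further list. The members and lists were chosen with earlier results of these data known. The calculations were tested on simulated data. Other scalings, filters, thinning depths and clusterings were tried, and leaving out the erythroid-like cells, or clusters 2 and 9, was chosen after seeing the data.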

Additional observations from a re-analysis of the deposited data

Results flagged for a closer look

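The imatinib ratio of Rsad2 had opposite signs in the genotypes, higher in CML and lower in WT, and the log2 ratio in CML exceeded that in WT by 4.47. For Isg20 the same difference was 2.52. With 1 library per group neither difference was tested.

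Cells left out by the depth filter also held Rsad2. The 1993 left-out cells of CML imatinib, 1965 of them under 500 UMIs, held 552 Rsad2 UMIs, or 761 CPM (699 to 827), against 7 UMIs in 1438 left-out cells of WT imatinib. Of the 552, 532 lay in 18 cells with at least 5 each, and 1 cell had 114. Haemoglobin made up 3.93 to 20.3% of the UMIs of these 18 cells, and the other 28 genes summed to 542 CPM over all left-out cells.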

How the results depend on the processing

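Of the values recomputed under alternatives, 100 stayed within a tolerance, 38 moved and 4 turned in direction, and where no construction shows it the cause was not tested. The tolerance was 1.5-fold for a count of called genes and the typical counting error of a gene's ratio for a median. For other values it was the 95% interval of the main value. The settings chosen after seeing the data are included. No paired analysis was possible because each group had 1 library. The counts of called genes that follow are not set beside all-gene shares under the same settings. Between the untreated libraries the count of called genes went from 0 to 3 lower under TMM and under scaling without the most abundant genes, to 1 with the mean of single-cell CPM, without the mature clusters, without the 10 top cells, without clusters 2 and 9 or with no CPM floor, to 2 without erythroid-like cells and to 4 at 1.5-fold. For imatinib in CML the count of 7 became 4 without clusters 2 and 9 and 4 at 50 CPM, and the median of -0.54 became -0.86 under TMM, -0.99 with mean single-cell CPM, -0.92 after thinning, -0.88 without the 10 top cells and -0.24 without clusters 2 and 9. For imatinib in WT the count of 13 became 7 after thinning and 4 at 50 CPM. Between the imatinib libraries the count of 3 became 0 without mature clusters or without erythroid-like cells, and the median of 0.20 turned to -0.0532 under TMM, -0.0967 with mean single-cell CPM, -0.0212 without mature clusters and -0.0328 without erythroid-like cells, and was 0.55 without clusters 2 and 9. Without erythroid-like cells Rsad2 and Oasl1 lay under the CPM floor in both imatinib libraries and could not be called.

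With cells of at least 1000 UMIs clustered anew, erythroid-like cells of CML imatinib had Rsad2 at 113 CPM and the summed set at 1014, and the WT untreated lymphoid-primed-like and monocyte-like cells had the summed set at 1102 and 731. At resolution 1.0 Isg20 was at 121 CPM in erythroid-like cells of CML untreated. The 5 and 20 top cells of CML imatinib held 48.5% and 85.6% of Rsad2 and 16.5% and 42.2% of Isg20, and from 1000 UMIs the 10 top cells held 67.3% of Rsad2. Cells with at least 3 of the genes, thinned to 1000 UMIs, made up 8.09% of WT and 4.62% of CML cells when untreated and 0.558% and 0.649% with imatinib, and without the 3 most abundant genes at 500 UMIs 0.825%, 0.594% and 0.0389% of WT untreated, CML untreated and CML imatinib.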
